A study of Mus musculus with 2 samples.

Results

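Striated muscle, the muscle of skeleton and heart, contracts through sarcomeres, in which thick filaments of myosin slide along thin filaments of actin. Calcium released from the sarcoplasmic reticulum binds troponin C, which together with troponin I and troponin T moves tropomyosin on the thin filament and lets myosin bind. Most of these proteins come as separate genes for fast fibres, slow fibres, heart and developing muscle, so the isoforms present in a tissue describe what kind of striated fibre it carries. The stomach wall itself is smooth muscle, which uses other actin and myosin genes, and in mice the muscle coat of the adjoining oesophagus is striated.

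The genes described here are 47 listed symbols of fast, slow, cardiac and neonatal striated muscle isoforms, chosen by name and all found among the 43346 mouse genes of the deposited gene tables. Of these, 15 are isoforms of fast fibres, 2 of slow fibres, 5 of slow fibres and heart, 5 of heart, 2 of embryonic and neonatal muscle, and 18 are shared by several striated types. Expression was measured by RNA sequencing of polyadenylated RNA in stomachs taken at 8 weeks of age from C57BL/6J mice, an inbred laboratory strain, with no treatment or genetic change named. The single group held 2 libraries, numbered biological replicates 1 and 2, each described as a pool of males and females from littermates, and both tied to the same donor record. How far the pools were separate animals is not known, so every spread given here is that between these 2 libraries, and no comparison between conditions exists.

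Replicate 1 held 52363597 read pairs and replicate 2 held 62452468. Of the stomach gland and pit markers, 10 of 10 matched genes reached a TPM (transcripts per 1000000 transcripts) of 1 in both libraries, and their summed TPM was 159447.8 in replicate 1 and 206346.4 in replicate 2. Pgc, the pepsinogen of chief cells, led them at 101314 TPM in replicate 1 and 148481 TPM in replicate 2, followed by the mucosal peptide genes Tff1, Gkn1 and Gkn2. The markers of the labelled tissue were thus present in both libraries. TPM is a share of all transcripts of a library, so a gene is compared with others per length, and a value depends on how much the most abundant genes take up.

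RNA of the striated muscle genes was a small and uneven part of these libraries. The 47 genes summed to 1895.6 TPM in replicate 1 and 1527.0 TPM in replicate 2, and took 0.179% and 0.18% of the read pairs assigned to mouse genes in replicates 1 and 2. Of the 47, 25 (53.2%) had a TPM of at least 1 in both libraries, against 25.2% of all mouse genes and 48.9% of protein-coding genes. The share was thus close to that of protein-coding genes. A further 10 reached 1 TPM in 1 library, 12 stayed below 1 TPM in both, and Myl2 and Tnnc1 among these were given no reads. The median of the genes' mean TPM was 1.80, against 1.15 over 21474 protein-coding genes. Levels ran from over 500 TPM to 0. In bulk tissue, few striated fibres, little RNA in each and RNA of these genes from other cells cannot be told apart.

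**Figure D1:**
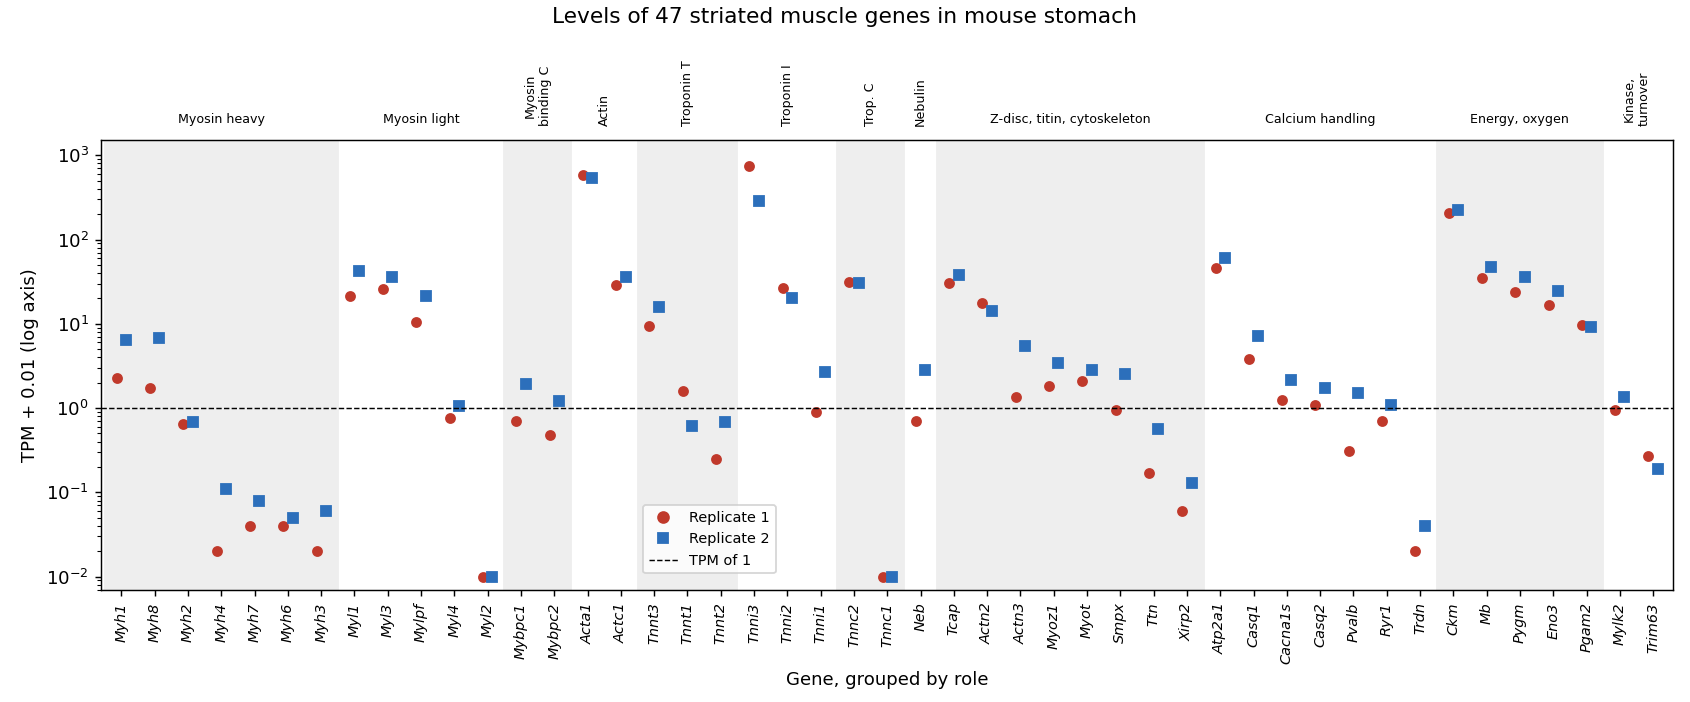
Each of the 47 genes is shown on the horizontal axis, grouped by role, with TPM plus 0.01 on a log axis, a circle for replicate 1 and a square for replicate 2; the dashed line marks a TPM of 1. Acta1, Tnni3 and Ckm stand above 200 TPM in both libraries, most heavy chain genes stand below 1 TPM, and Myl2 and Tnnc1 stand at 0.

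Actin and the energy genes were the most abundant groups with every member detected. Acta1, the skeletal muscle alpha-actin gene (chromosome 8, 123891769 to 123894751 on mm10), had 587 TPM in replicate 1 and 530.3 TPM in replicate 2. Actc1, which encodes the cardiac alpha-actin, had 28.8 TPM in replicate 1 and 35.8 TPM in replicate 2. Acta1 thus made up 94.5% ± 1.17 (SD, n = 2) of the TPM of both striated actins. When the smooth muscle actins Acta2 and Actg2 were added, Acta1 held 20.2% ± 2.67 of the 4 muscle actins and Acta2 held 43.5% ± 1.84.

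Upstream of the start, Acta1 and Actc1 carry a CArG box, the sequence to which serum response factor binds in many muscle genes. A search of the 250 bases before each RefSeq start (GRCm38.p6) covered 45 windows of 38 of the 47 genes, on both strands. The CArG box lay in 4 windows (8.89%), those of Actc1, Acta1, Myl3 and Myh4, against 1.47% of 32851 windows of all genes. TATAAA lay in 20% of these windows and 12.4% of all windows, and CANNTG, the E-box letters read by myogenic factors, in 84.4% and 66.2%. The 4 windows with a CArG box are printed to show where it lies, in capitals together with TATAAA or its reverse complement. They are Actc1 (chr2:114052876-114053125, minus strand), Acta1 (chr8:123894776-123895025, minus strand), Myl3 (chr9:110763428-110763677, plus strand) and Myh4 (chr11:67237562-67237811, plus strand).

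Actc1: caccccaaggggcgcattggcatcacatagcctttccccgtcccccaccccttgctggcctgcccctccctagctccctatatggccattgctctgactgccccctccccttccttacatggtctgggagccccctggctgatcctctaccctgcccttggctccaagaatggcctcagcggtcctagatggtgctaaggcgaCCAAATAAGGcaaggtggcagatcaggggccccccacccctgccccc
Acta1: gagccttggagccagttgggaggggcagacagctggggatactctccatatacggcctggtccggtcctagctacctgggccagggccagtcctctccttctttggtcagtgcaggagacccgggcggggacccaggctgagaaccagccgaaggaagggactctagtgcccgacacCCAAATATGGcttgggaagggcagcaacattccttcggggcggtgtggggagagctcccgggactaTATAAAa
Myl3: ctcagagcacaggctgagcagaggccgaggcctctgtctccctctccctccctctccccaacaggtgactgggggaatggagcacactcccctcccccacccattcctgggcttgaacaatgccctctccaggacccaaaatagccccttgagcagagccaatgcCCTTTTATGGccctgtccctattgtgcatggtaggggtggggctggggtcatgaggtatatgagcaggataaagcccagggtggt
Myh4: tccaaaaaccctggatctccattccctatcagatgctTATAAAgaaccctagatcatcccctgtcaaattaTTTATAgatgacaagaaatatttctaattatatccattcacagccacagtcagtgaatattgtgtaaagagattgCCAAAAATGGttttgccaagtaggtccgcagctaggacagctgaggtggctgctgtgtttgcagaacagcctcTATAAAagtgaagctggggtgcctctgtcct

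The mean levels of these 4 genes ran from 558.9 TPM for Acta1 through 32.3 TPM for Actc1 and 30.8 TPM for Myl3 to 0.055 TPM for Myh4, so the letters stood in front of abundant and nearly silent genes alike. A match describes the letters and not a bound site.

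Among the energy and oxygen genes, Ckm, the muscle creatine kinase that regenerates ATP from phosphocreatine (chromosome 7, 19404776 to 19422841), had 204 TPM in replicate 1 and 221 TPM in replicate 2. Mb, which encodes the oxygen-binding myoglobin, had 34.7 TPM in replicate 1 and 47.5 TPM in replicate 2. Pygm, the muscle glycogen phosphorylase, had 23.8 TPM in replicate 1 and 35.8 TPM in replicate 2. These 3 genes were therefore present in both libraries at levels that differed by less than 2-fold. Eno3, the muscle enolase, had 16.7 TPM in replicate 1 and 24.2 TPM in replicate 2, and Pgam2, the muscle phosphoglycerate mutase, had 9.71 TPM in replicate 1 and 9.19 TPM in replicate 2.

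Set beside their counterparts in other tissues, the muscle enzymes differed in weight. Ckm held 14.9% ± 3.32 (SD, n = 2) of the TPM of 4 creatine kinase genes, in which Ckb, the cytosolic brain type, held 48.8% ± 7.76 and the mitochondrial Ckmt1 held 36.2% ± 4.47. The sarcomeric mitochondrial kinase Ckmt2 held 0.104% ± 0.0259. Eno3 held 6.31% ± 2.44 of the enolases and Pgam2 8.31% ± 1.75 of the phosphoglycerate mutases. Pygm, in contrast, held 41.9% ± 5.55 of the glycogen phosphorylases, and Pygb, the brain type, held 54.5% ± 5.47.

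The myosin heavy chains, the motors that set the speed of a fibre, were low and of mixed type. Myh1, the fast chain called IIx, had 2.29 TPM in replicate 1 and 6.46 TPM in replicate 2. Myh8, the neonatal chain, had 1.73 TPM in replicate 1 and 6.71 TPM in replicate 2. Myh2, the fast chain called IIa, had 210 and 253 read pairs in replicates 1 and 2, at 0.63 and 0.67 TPM. By gene TPM, Myh1 was the highest of the 7 in replicate 1 and Myh8 in replicate 2, and both were higher in replicate 2. In replicate 2, 63.3% of the Myh8 TPM was given to the retained-intron transcript Myh8-203, which had 0 TPM in replicate 1, and the coding Myh8-201 had 1.5 TPM in replicate 1 and 2.42 TPM in replicate 2. By read pairs Myh1 led in both, with 770 against 545 for Myh8 in replicate 1 and 2470 against 1912 in replicate 2. Myh1 held 47.1% ± 1.84 of the heavy chain TPM, Myh8 held 42.1% ± 7.79 and Myh2 held 9.04% ± 6.06 (SD, n = 2). Without the retained-intron transcripts of Myh8, chosen after their values were seen, Myh1 held 57.1% and Myh8 held 30.6%.

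The remaining 4 heavy chains were near 0. Myh4, the fastest chain IIb, had 2 and 38 read pairs in replicates 1 and 2. Myh7, the slow and cardiac chain, had 9 and 27 read pairs, and Myh6, the atrial cardiac chain, had 5 and 15. Myh3, the embryonic chain, had 5 and 18 read pairs. Each of these 4 genes thus held under 1% of the heavy chain TPM in both libraries. Myh3, Myh2, Myh1, Myh4 and Myh8 lie side by side in this order on chromosome 11 (67078300 to 67308634) and share long stretches of sequence, so reads could be divided between them. The posterior SD of the count that the authors deposited was at most 0.508% of the count for Myh1, Myh2 and Myh8, and 9.9% for Myh4 in replicate 1. Smooth muscle Myh11 exceeded all 7 striated chains together, with 77.5% ± 5.91 of the TPM of these 8 genes.

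The myosin light chains, which stiffen and tune the lever arm of the motor, were higher per gene than the heavy chains. Myl1, the fast essential chain, had 21.6 TPM in replicate 1 and 42.6 TPM in replicate 2. Myl3, the slow and ventricular essential chain, had 26.05 TPM in replicate 1 and 35.45 TPM in replicate 2. Mylpf, the fast regulatory chain, had 10.5 TPM in replicate 1 and 21.6 TPM in replicate 2. By TPM, Myl1 held 39.5% ± 4.02 of the light chains and Myl3 held 39.7% ± 6.38, with a reversed order in the libraries. Of the 1714 junction reads of Myl1, 1656 lay on its first intron, and the median reads per intron were 7 for Myl1 and 289 for Myl3. Myl4, the atrial and fetal chain, had 34 and 45 read pairs in replicates 1 and 2, at 0.76 and 1.05 TPM. Myl2, the slow and ventricular regulatory chain, was listed at 0 read pairs in both libraries, although the authors' posterior mean gave it 0.75 TPM in replicate 1 and 6.15 TPM in replicate 2.

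The myosin binding proteins C were near the detection level. Mybpc1, called the slow type but counted here among the genes shared by striated types, had 0.7 TPM in replicate 1 and 1.94 TPM in replicate 2. Mybpc2, the fast type, had 92 and 282 read pairs in replicates 1 and 2, at 0.47 and 1.2 TPM. Neither gene reached 1 TPM in replicate 1.

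Ranked by gene TPM, the leading troponins did not share a fibre type. Tnnc2, the fast troponin C, had 31.2 TPM in replicate 1 and 30.7 TPM in replicate 2, and the slow and cardiac Tnnc1 was listed at 0 read pairs in both. Tnnt3, the fast troponin T, had 9.47 TPM in replicate 1 and 15.7 TPM in replicate 2. Among the T subunits Tnnt3 held 88.1% ± 6.08 of the TPM (SD, n = 2). The slow Tnnt1 had 1.59 TPM in replicate 1 and 0.61 TPM in replicate 2, and the cardiac Tnnt2 had 27 and 68 read pairs in replicates 1 and 2, at 0.24 and 0.68 TPM.

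Troponin I went the other way by gene TPM. Tnni3, the cardiac inhibitory subunit (chromosome 7, 4518305 to 4524229), had 747 TPM in replicate 1 and 289.5 TPM in replicate 2, and its mean TPM of 518 ranked 146 among all genes. Tnni2, the fast subunit, had 26.3 TPM in replicate 1 and 20.4 TPM in replicate 2, and the slow Tnni1 had 0.9 TPM in replicate 1 and 2.7 TPM in replicate 2. By TPM, Tnni3 thus held 94.6% ± 2.74 (SD, n = 2) of troponin I, while the cardiac partners Tnnt2 and Tnnc1 were low or at 0.

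**Figure D2:**
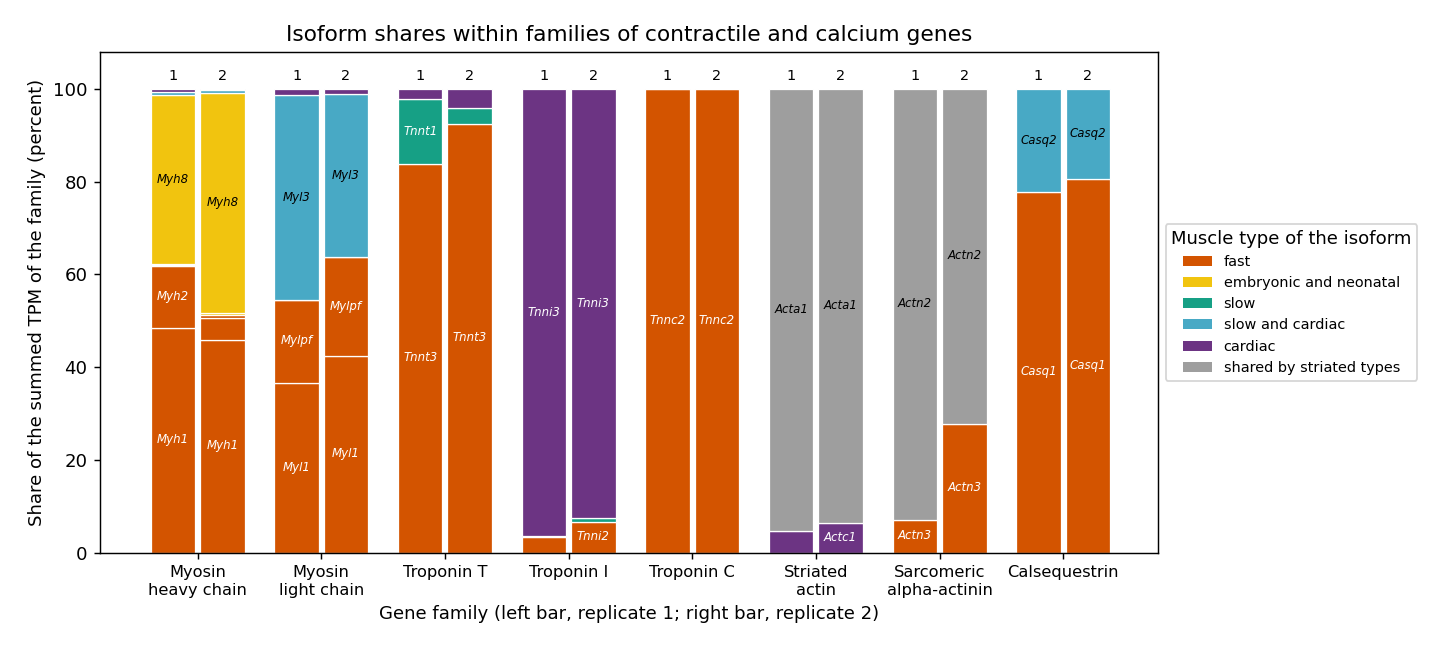
Stacked bars give each gene's share, in percent, of the summed TPM of its family, with replicate 1 as the left bar and replicate 2 as the right bar of each pair; colours mark the muscle type of the isoform and names are written on shares above 6%. Tnnc2 fills the troponin C bars and Tnnt3 most of the troponin T bars, both fast, while the cardiac Tnni3 holds 96.5% and 92.6% of the troponin I bars and the neonatal Myh8 shares the heavy chain bars with the fast Myh1.

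The Tnni3 reads came from a restricted stretch of the gene. In replicate 1, 97.5% of the TPM of the gene was given to 1 transcript, Tnni3-207, and in replicate 2 it was 95%, at 729 and 275 TPM. This transcript of 548 bases has a first exon that lies before the usual start of the gene, on the same strand as the neighbouring gene Dnaaf3, which overlaps Tnni3. The intron that follows this exon had 13 junction reads in both libraries together. Along the full coding transcript Tnni3-201 the introns had 24, 1336, 520, 109, 50, 152 and 53 junction reads from the 5′ end on. The second exon is 13 bases long and separates the introns with 24 and 1336 reads. Reads were thus dense around the first exons and sparse over the rest, and few crossed into the first exon that is particular to Tnni3-207.

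The contig table, which lists transcribed stretches, showed the same unevenness. Of 11 contigs over Tnni3, those of 351 and 445 bases had signals of 250 and 187 and held 95.1% of the summed signal, while the others had signals of 0.238 to 7.15. Tnni2 was uneven too, with 99.8% of the summed signal in 2 of its 4 contigs. Its first contig, of 4984 bases and signal 40.9, began at -3189 bases from the 5′-most matched splice site. The later Tnni2 contigs had signals of 0.466 to 6.21, and what produced the long contig was not tested. By mean reads per intron, which a single intron can carry, Tnni3 (320.6) and Tnni2 (348.3) were nearly equal, at 46.8% and 50.9% of the summed means of the troponin I genes, and without Tnni3-207 the Tnni3 share of the TPM was 39.5%. The order of Tnni3 and Tnni2 therefore depended on how the reads over the start of Tnni3 were counted, and what produced those reads was not tested. Tnni3-207 and the contigs were singled out after their values were seen.

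Tnnt3 also offered a choice within the gene. Fast troponin T carries a pair of mutually exclusive exons near its C-terminal end, each of 41 bases, and a transcript holds one or the other. Both are printed because the junction reads tell them apart, with capitals at the 23 positions where they differ. The upstream exon is exon 15 of 16 in Tnnt3-224 (chr7:142513665-142513705) and the downstream exon is exon 13 of 14 in Tnnt3-211 (chr7:142514326-142514366), both coding and on the plus strand of GRCm38.

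Tnnt3 upstream exon: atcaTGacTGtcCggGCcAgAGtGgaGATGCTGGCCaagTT
Tnnt3 downstream exon: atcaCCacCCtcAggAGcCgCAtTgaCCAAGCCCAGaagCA

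The downstream exon was joined more often than the upstream exon. By the intron before it, the downstream exon had 111 of 148 reads (75%, 95% Clopper-Pearson interval 67.2% to 81.7%). By the intron after it, it had 423 of 553 reads (76.5%, interval 72.7% to 80%). Both introns thus gave shares with overlapping intervals, which cover counting error only. The junction table does not tie its reads to a library, so no share per library was computed.

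Myl1 has a pair of starts that yield a longer and a shorter light chain. The downstream start, that of the shorter chain, had 1656 reads on its first intron, and the upstream start had 4 (0.241% of both, interval 0.0657% to 0.616%). The second exon after the downstream start is 25 bases long, and the next intron, into exons that both forms share, had 43 reads. The introns after that had 6, 0, 8 and 1 reads. The junction reads were thus nearly all at the downstream start, and few lay over the rest of the gene. The leading transcript by TPM was the noncoding Myl1-204 in replicate 1 (13.7 TPM) and the coding Myl1-202 in replicate 2 (38.6 TPM), both from the downstream start.

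**Figure D3:**
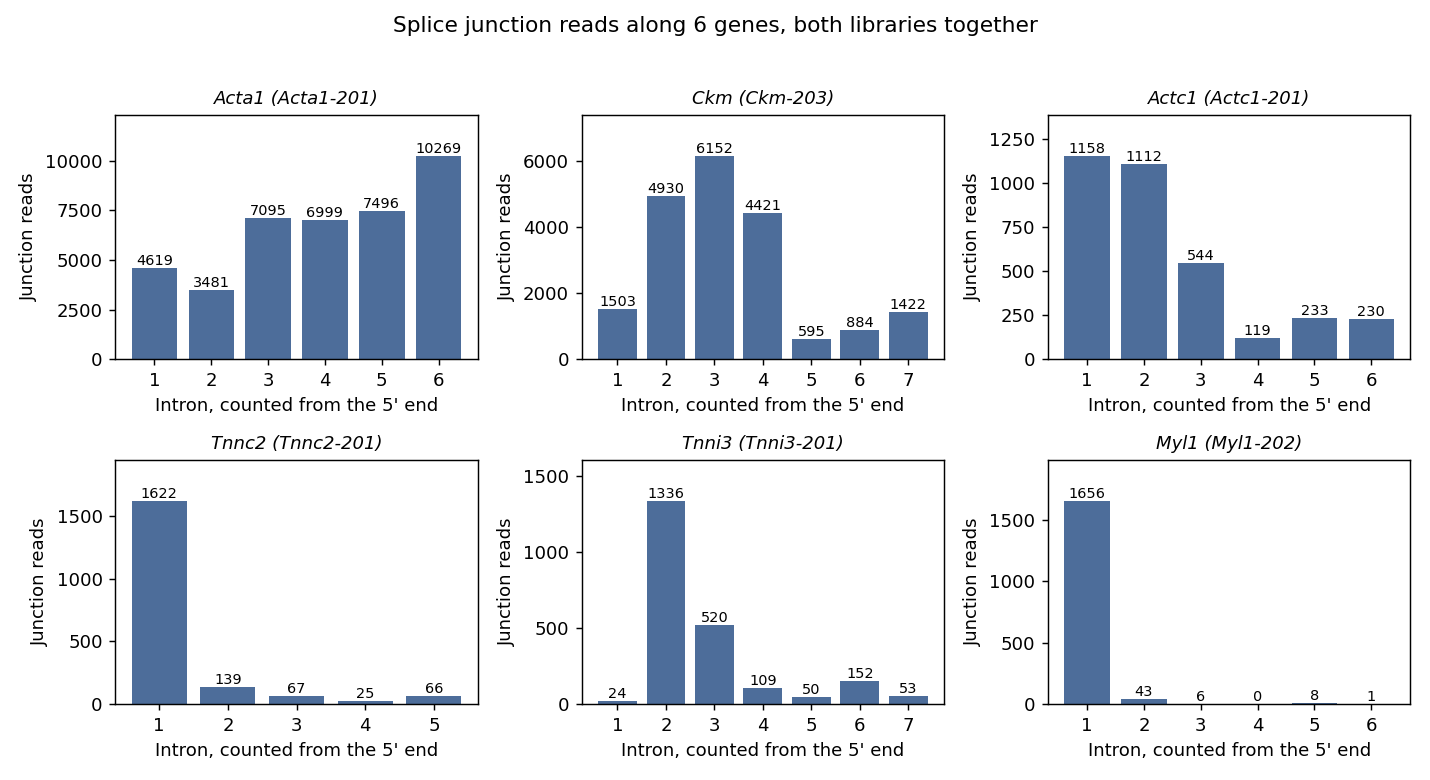
Bars give junction reads of both libraries together (vertical axis) for each intron counted from the 5′ end (horizontal axis) of 6 genes, with the transcript in the title of each panel. Acta1 introns have 3481 to 10269 reads and Ckm introns 595 to 6152, whereas Tnnc2, Tnni3 and Myl1 have most of their reads on 1 intron near the 5′ end.

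Junction reads were tied to 44 of the 47 genes, all but Tcap, Myl2 and Tnnc1, and in 14 of them every intron of the chosen transcript had reads. Tying needed only 2 matching junctions, so Xirp2 with 2 reads and Trdn with 6 counted among the 44. Of multi-exon protein-coding genes that averaged 1 TPM or more, 10063 of 10302 were tied. The mean number of reads per intron was 6659.8 for Acta1, 2843.9 for Ckm, 566 for Actc1, 383.8 for Tnnc2 and 329 for Myl3. By this measure Acta1 and Ckm led, and Tnni3 stood below Actc1, Tnnc2, Tnni2 and Myl3. A single intron carried 1622 of the 1919 reads of Tnnc2 and 1581 of the 2438 reads of Tnni2. By the median over introns Tnni3 (109) stood above Tnni2 (93) and Tnnc2 (67), so their order depended on the measure. For the heavy chains, reads per intron gave Myh1 a share of 48.6%, Myh8 42.9% and Myh2 5.58%.

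Junction reads along the genes were uneven in both directions. The 5′ and 3′ parts of the transcript were compared in 26 genes that averaged 1 TPM or more and had enough junction reads. Of these, 8 had more than 4 times as many reads per intron in the 5′ as in the 3′ part. The background was 16% of 8071 protein-coding genes at that level. The 8 genes were Actc1, Ckm, Myh1, Myl1, Smpx, Tnnc2, Tnni2 and Tnni3. A further 4 leaned past 4-fold to the 3′ part, Actn2, Casq1, Casq2 and Tnnt3, against 17.6%. Of the genes below 1 TPM, Mybpc2 also leaned past 4-fold to the 3′ part, with a log2 of -2.22. Contig signal did not always lean the same way. The highest contig was the first from the 5′ end in Actn2 (signal 52.3) and Casq1 (8.93). In Casq2 (1.88) and Tnnt3 (5.65) it was the last. The median log2 of 5′ over 3′ reads was 0.13 for the 26 genes and -0.28 over the 8071.

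Of the 18 genes that averaged 5 TPM or more, 14 had several transcripts in the tables, and in 4 of these a noncoding transcript led in at least 1 library. The share over all genes was not computed, so whether 4 of 14 is unusual cannot be told. Actn2 was led by the retained-intron transcript Actn2-202 in replicate 1 (51% of the gene's TPM) and by the coding Actn2-201 in replicate 2 (77.7%). Eno3 was led by the retained-intron Eno3-208, of 498 bases, in replicate 1 (41.8%) and by the coding Eno3-201 in replicate 2 (43.7%). Tnnt3 was led in both by the retained-intron Tnnt3-221, of 471 bases, at 44.8% in replicate 1 and 68.7% in replicate 2. The TPM of these 3 genes therefore rested in part on short or intron-containing transcripts.

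Z-disc and titin genes, which anchor and align the filaments, spanned a wide range. Tcap, the titin cap, had 30.2 TPM in replicate 1 and 38.0 TPM in replicate 2. Actn2, the alpha-actinin common to heart and skeletal fibres, had 17.8 TPM in replicate 1 and 13.99 TPM in replicate 2. Actn3, the alpha-actinin of fast fibres, had 1.36 TPM in replicate 1 and 5.38 TPM in replicate 2. Actn2 thus led in both libraries, but Actn3 held 7.11% of the actinin TPM in replicate 1 and 27.8% in replicate 2.

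Myoz1, which tethers calcineurin at the Z-disc of fast fibres, had 1.8 TPM in replicate 1 and 3.44 TPM in replicate 2. Myot, which cross-links actin, had 2.11 TPM in replicate 1 and 2.81 TPM in replicate 2. Smpx, a small protein of the costamere, had 0.95 TPM in replicate 1 and 2.51 TPM in replicate 2. Neb and Ttn encode the giants of the sarcomere. Neb, the ruler of the thin filament, had 0.7 TPM in replicate 1 and 2.79 TPM in replicate 2. Ttn, the giant spring that spans the half-sarcomere, had 320 and 1521 read pairs in replicates 1 and 2, at 0.16 and 0.56 TPM. Xirp2, which binds actin at cell junctions, had 35 and 101 read pairs in replicates 1 and 2.

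By TPM, the calcium genes among the 47 were led by the fast pump. Atp2a1, the fast-fibre calcium ATPase SERCA1 that refills the sarcoplasmic reticulum, had 45.6 TPM in replicate 1 and 59.7 TPM in replicate 2. Casq1, the calcium store protein of fast fibres, had 3.77 TPM in replicate 1 and 7.18 TPM in replicate 2, and Casq2, the slow and cardiac form, had 1.08 TPM in replicate 1 and 1.74 TPM in replicate 2. Casq1 thus held 79.1% ± 1.95 of the calsequestrin TPM (SD, n = 2). By gene TPM, Atp2a1 held 57.5% ± 5.85 beside Atp2a2, the pump of heart, slow fibres and smooth muscle. The order turned with the full-length transcript Atp2a1-201 alone, which had 11.15 TPM in replicate 1 and 16.5 TPM in replicate 2 and held 26.3% ± 6.30 beside Atp2a2, and by read pairs, of which Atp2a1 had 3057 and 5169 and Atp2a2 had 9857 and 10919 in replicates 1 and 2.

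The TPM of Atp2a1 and its junctions gave different pictures of the form made. The short transcript Atp2a1-202 (681 bases), which lacks the penultimate exon as neonatal forms of the pump do, took 75.6% of the gene's TPM in replicate 1 and 72.4% in replicate 2. The introns on either side of that exon had 541 junction reads together, and the intron that skips it was not listed. The transcript was singled out after its values were seen.

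The calcium release machinery was lower. Cacna1s, the voltage sensor, had 1.23 TPM in replicate 1 and 2.17 TPM in replicate 2. Ryr1, the release channel, had 602 and 1116 read pairs in replicates 1 and 2, at 0.69 and 1.07 TPM. Both reached 1 TPM in replicate 2, and Ryr1 stayed below it in replicate 1. Trdn, which couples the channel to calsequestrin, had 3 and 8 read pairs. Pvalb, the calcium buffer of the fastest fibres, had 13 and 78 read pairs. All 4 genes thus had more read pairs in replicate 2. Mylk2, the skeletal myosin light chain kinase, had 0.95 TPM in replicate 1 and 1.33 TPM in replicate 2, and Trim63, a ubiquitin ligase of muscle wasting, had 22 and 21 read pairs.

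By fibre type, 10 of 15 fast genes (66.7%) were detected in both libraries, against 48.9% of protein-coding genes and 25.2% of all mouse genes, with a median of 4.38 TPM. Of the 5 slow and cardiac genes 2 were detected (Myl3 and Casq2), of the 5 cardiac genes 2 (Tnni3 and Actc1), of the 2 slow genes none, and of the 2 developmental genes 1 (Myh8). Of the 18 genes shared by striated types, 10 were detected (55.6%). The fast genes summed to 156 TPM in replicate 1 and 218 TPM in replicate 2. The 5 slow and cardiac genes summed to 27.2 TPM in replicate 1 and 37.3 TPM in replicate 2, nearly all of it Myl3.

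Other genes of the same structures gave a mixed picture. Of 17 skeletal muscle defining genes, 4 were detected in both libraries, against 48.9% of protein-coding genes. Cav3, the caveolin of muscle, led them at 12.6 TPM in replicate 1 and 8.9 TPM in replicate 2, followed by Cacng1, Chrnb1 and Jsrp1. Myod1, the master regulator of myogenesis, was at 1.15 TPM in replicate 1 and 0.73 TPM in replicate 2. Myog, a later regulator, had 0.47 TPM in replicate 1 and 0.96 TPM in replicate 2, and Myf5, an early one, had 0 TPM in replicate 1 and 0.15 TPM in replicate 2. The skeletal list summed to 25.6 TPM in replicate 1 and 27.8 TPM in replicate 2.

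Of 15 cardiac defining genes, 4 were detected in both libraries, against 48.9% of protein-coding genes. Sbk2 had 3.88 TPM in replicate 1 and 11.25 TPM in replicate 2. Myl7, the atrial regulatory light chain, had 4.14 TPM in replicate 1 and 4.02 TPM in replicate 2, and Pln, which restrains the calcium pump, had 2.75 TPM in replicate 1 and 3.59 TPM in replicate 2. Nkx2-5, a factor also used in the developing stomach, had 1.65 TPM in replicate 1 and 1.53 TPM in replicate 2. Sbk2 and Pln were thus lower in replicate 1, with log2 ratios of -1.42 and -0.41, while Myl7 (0.01) and Nkx2-5 (0.12) were close to even. Nppb and Bmp10 were given no reads and Nppa, the atrial natriuretic peptide, had 0 TPM in replicate 1 and 0.09 TPM in replicate 2. The cardiac list summed to 13.6 TPM in replicate 1 and 22.1 TPM in replicate 2, and its part in the level of Tnni3 was not tested.

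Among sarcomere and Z-disc genes outside the 47, 18 of 37 were detected, close to the 48.9% of protein-coding genes. Tpm1, Tpm2, Hspb6 and Cryab, all of which smooth muscle also uses, led them. Tpm1, a tropomyosin, had 128 TPM in replicate 1 and 129 TPM in replicate 2. Lower in this list, Ldb3 had 15.6 TPM in replicate 1 and 24.3 TPM in replicate 2. Myoz2 and Myom2, a Z-disc and an M-band protein, were below 1 TPM in both. Of 16 excitation-contraction coupling genes 8 were detected, also close to that background share. Jph2 (78.1 TPM in replicate 1 and 33.7 TPM in replicate 2), Asph, Sln and Atp2a2 led them, while Cacna2d1 and Jph1 stayed below 1 TPM. Sln, the inhibitor of the calcium pump in atrium and slow muscle, had 53.7 TPM in replicate 1 and 48.2 TPM in replicate 2. Of 22 muscle energy genes 20 were detected, above the 48.9% of protein-coding genes. The widely used Aldoa, Ckb, Ckmt1 and Eno1 led them, while Phkg1 and Ppp1r3a were below 1 TPM. Lower in this list, Fabp3 had 99.8 TPM in replicate 1 and 80.3 TPM in replicate 2. Cox6a2 had 43.8 TPM in replicate 1 and 35.7 TPM in replicate 2. All 14 smooth muscle genes reached 1 TPM in both libraries, at a median of 55.4 TPM and a sum of 7182 TPM in replicate 1 and 4530 TPM in replicate 2, led by Tagln, Acta2, Actg2 and Myl9.

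Between the libraries, most striated muscle genes were lower in replicate 1 than in replicate 2. The log2 ratio of scaled counts, replicate 1 over replicate 2, was below 0 in 24 of the 31 genes that averaged 1 TPM or more, as it was in 47.3% of all 11582 such genes. The median was -0.49 for the 31 genes and 0.03 for all. Past 2-fold, 2 of the 31 were higher in replicate 1 (background 5.67% of all genes), Tnni3 and Tnnt1, and 9 were higher in replicate 2 (background 2.77%). These 9 were Actn3, Cacna1s, Mybpc1, Myh1, Myh8, Myl1, Neb, Smpx and Tnni1. Among the 18 genes that averaged 5 TPM or more, Tnni3 was past 2-fold higher in replicate 1 (background 6.24%, or 5.05% by interval) and Myl1 in replicate 2 (background 1.05%, or 0.738% by interval). The ratios describe the spread within 1 group and no condition.

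With a counting interval wholly past 2-fold, 1 gene remained higher in replicate 1 (background 3.98%) and 6 higher in replicate 2 (background 1.2%). Tnni3 had a log2 ratio of 1.32 (95% interval 1.28 to 1.36). Actn3 had -2.41 (interval -2.76 to -2.12), Neb had -2.06 (interval -2.40 to -1.77) and Myh8 had -1.54 (interval -1.68 to -1.40). Acta1 at 0.15, Ckm at -0.11 and Tnnc2 at 0.00 were close to even. By gene counts, Myh8, Neb and Actn3 thus differed several-fold between libraries in which the skeletal actin and creatine kinase hardly did. These counts include noncoding transcripts. The processed transcript Neb-208 held 88.6% and 79.2% of the Neb TPM in replicates 1 and 2. The retained-intron Actn3-202 held 75.7% and 51.5% of the Actn3 TPM. In the same order, the coding Actn3-201 had 51 and 481 read pairs, Neb-201 had 44 and 195, and Myh8-201 had 517 and 988.

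Markers of other cell types also shifted between the libraries. The log2 ratio was above 0 in 9 of 14 smooth muscle genes, with a median of 0.25. It was highest for Des at 1.26, Cnn1 at 0.91 and Tagln at 0.83. In the other 5 it was below 0, lowest for Chrm2 at -1.16 and Myh11 at -0.86. Of the 10 stomach gland and pit markers 6 were lower in replicate 1, with a median of -0.21, at 0.79 for Atp4b of parietal cells, -0.55 for Pgc of chief cells and -0.83 for Muc5ac of pit cells. The 5 skeletal muscle defining genes that averaged 1 TPM or more had a median of -0.60. At that level the other striated lists above were mixed. Their medians were -0.35 for 19 sarcomere and Z-disc genes and -0.20 for 4 cardiac genes. For 8 excitation-contraction coupling genes the median was 0.01, and for 20 muscle energy genes 0.20. The part of a different tissue make-up of the libraries in the striated gene ratios was not tested.

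Transcript length and level moved with these ratios across all genes. Over genes whose longest coding transcript exceeded 4000 bases the median log2 ratio was -0.16, and over those of at most 1000 bases it was 0.26. In the same classes the striated genes had medians of -1.47 (4 genes) and 0.00 (7 genes). Between 1000 and 2000 bases the medians were -0.62 for 12 striated genes and 0.20 for all, and between 2000 and 4000 bases -0.48 for 8 and 0.07 for all. The striated genes thus had a lower median than all genes in each length class. Among genes that averaged 20 TPM or more, the medians were -0.34 for 13 striated genes and 0.22 for all. The classes were chosen after the ratios were seen, and the part of length, level or RNA quality in the ratios was not tested.

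**Figure D4:**
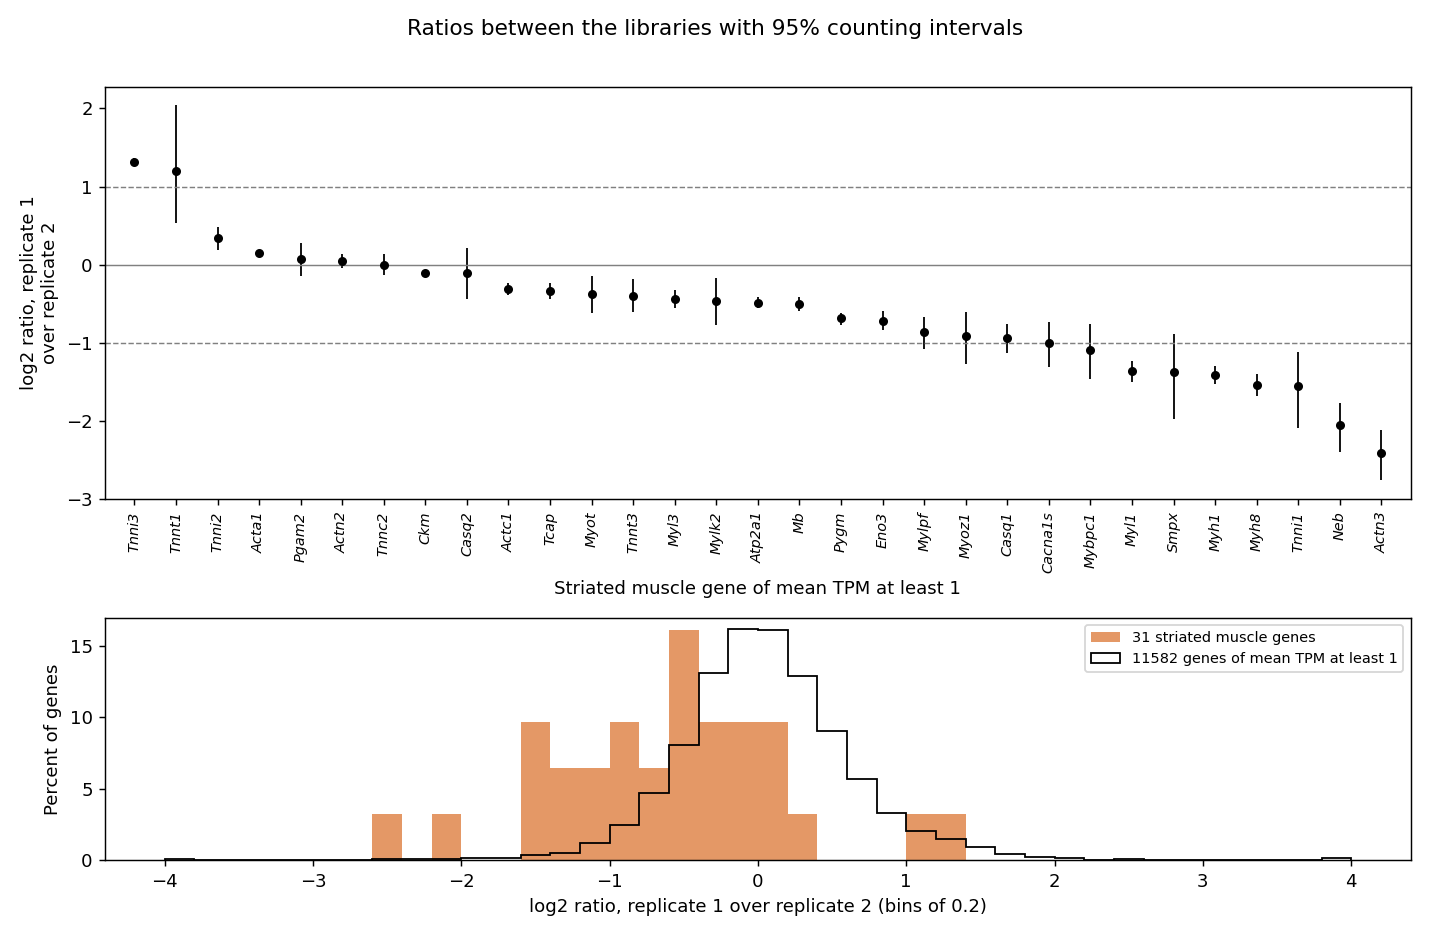
The upper panel shows, for the 31 genes that averaged 1 TPM or more, the log2 ratio of replicate 1 over replicate 2 (point) with its 95% counting interval (line), and dashed lines at 2-fold; the lower panel gives the percent of genes per ratio bin for these genes (filled) and for all 11582 genes (outline), with ratios beyond the axis drawn in its end bins. Tnni3 and Tnnt1 stand above the upper dashed line and Actn3 is the lowest, at -2.41.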

How the data were processed

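The authors deposited expected counts and TPM per gene and per transcript for each library, with a posterior mean TPM and a posterior SD of the count, on mm10 with GENCODE M4 per the file headers and README. The expected counts are fractional, since shared reads were divided by a model, and the quantifier's version is not given in the sources used here. A deposited mm9 table holds read counts per splice junction and another a signal per contig, proportional to coverage over length per the file's values; both cover the libraries together. Symbols and positions were taken from GENCODE M21, which is later but on mm10 too, and promoter windows from RefSeq.

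With 1 group of 2 libraries, no p-value was computed. TPM is given per library or as mean ± SD. The ratios came from rounded expected counts, scaled by TMM over 15234 genes kept by filterByExpr (edgeR 4.0.16, prior count 2), with spike-ins and phage left out. Their exact conditional binomial (Clopper-Pearson) 95% intervals cover counting error only, because reads that carry no molecular identifier need not be separate molecules. The left-out shares were 1.14% and 1.12% for spike-ins and 0.252% and 0.185% for the phage in replicates 1 and 2. DESeq2 1.42.0 gave another scaling. The ratio procedure was tested on simulated data. The libraries differed beyond sampling noise and were kept as 2 samples.

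Junctions were tied to a gene only where at least 2 had the lengths and spacing of its introns on its chromosome and strand, and no coordinates were converted. The 5′ to 3′ measure needed 4 introns and 50 reads, and its counts and medians took genes of mean TPM at least 1. Of the 47 genes, 20 overlap a gene on the opposite strand and 7 one on the same strand; whether counting used strand is not stated, so such reads may be shared. Detection meant a TPM of at least 1 in both libraries. Every gene of the list is accounted for, with TPM from a mean of 1 and read pairs, some with TPM, below it. Of other lists the 4 highest and up to 2 below 1 TPM are named. Exceptions are Bmp10, Myod1, Ldb3, Fabp3 and Cox6a2, and genes named for their ratios or beside a family. Some genes that this rule would name are not reported here. The genes and lists were chosen with earlier results of these data known. Protein identity within families was not computed.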

Additional observations from a re-analysis of the deposited data

How the results depend on the processing

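No paired analysis was possible because both libraries belong to 1 group. The 25 genes detected became 40 at 10 read pairs in both libraries; under 4 other definitions the count was 17 to 34, and without replicate 1 or 2 it was 34 or 26. The median level of 1.80 TPM became 3.06 when spike-ins, Clps and Pgc were left out of the total, and ran from 1.36 to 2.79 without either library. By posterior mean TPM, the share of Myh1 was 44.5%, of Tnnt3 78.6% and of Tnnc2 99.7% (99.65%). By expected counts, not per length, the share of Myh1 was 51%, of Tnnt3 81.9% and of Tnni3 91.6%. The Tnni3 share was 46.8% by junction reads per intron and 39.5% without its leading transcript, and without the retained-intron transcripts of Myh8 the shares were 57.1% for Myh1 and 30.6% for Myh8, all added after seeing the data. Without either library the shares ran from 45.8% to 48.4% for Myh1, 36.6% to 47.6% for Myh8, 83.8% to 92.4% for Tnnt3 and 92.6% to 96.5% for Tnni3, and Tnnc2 stood at 100%. With a pseudocount of 1 on TPM, 1 gene was past 2-fold higher in replicate 1 and 4 in replicate 2. Among genes averaging 5 TPM or more the counts were 1 and 1, and with an interval wholly past 2-fold 1 and 6. The median log2 ratio was -0.53 to -0.44 under 5 other settings, and no gene past 2-fold changed sign under them. Ratios could not be had without either library. The cause of these shifts was not tested, apart from fewer genes tested at the higher level. Depth limits Myh3, Myh4, Myh6, Myh7, Myl4, Tnnt1, Trdn and Trim63 most, with under 50 read pairs in each library, and Myl2 and Tnnc1, with none.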

Other observations

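In a list of regulators of branchial and head muscle, 8 of 14 were detected in both libraries, against 48.9% of protein-coding genes. The median of the list was 1.55 TPM. Mef2d, a partner of myogenic factors that many tissues use, had 51.4 TPM in replicate 1 and 45.5 TPM in replicate 2. Tcf21, which also marks fibroblasts, had 24.3 TPM in replicate 1 and 26.3 TPM in replicate 2. Isl1 had 12.8 TPM in replicate 1 and 16.6 TPM in replicate 2, and Tbx1 had 9.66 TPM in replicate 1 and 5.12 TPM in replicate 2; both act in the pharyngeal mesoderm that forms head and oesophageal muscle. Pax3, a regulator of trunk and limb muscle precursors, was given no reads. Most of these genes are also used outside muscle, and the cells they came from were not tested.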
